A study of Mus musculus with 6 samples.

Results

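YAP (Yap1) and TAZ (Wwtr1), the coactivators of the Hippo pathway, their DNA-binding partner Tead1, and 7 genes known as targets or regulators of the pathway were followed in the left ventricle of mice fed ethanol. The 7 are Ccn1, Ccn2, Ankrd1, Amotl2, Lats2, Ajuba and Crim1. All 10 genes were found by exact symbol among the 55487 genes in the files, of which 29737 had a count in at least 1 library, and all 10 were among the 15727 with enough counts to be tested. The 6 libraries came from male C57BL/6 wildtype mice, 8 weeks old. The ET libraries carry the label of alcoholic cardiomyopathy, the weakening of the heart muscle seen after long alcohol use. The 3 ET libraries were from mice that ate a 5% ethanol diet over 10 days before 1 ethanol gavage. The 3 CONT libraries were from mice that ate an isocaloric control diet over 10 days before 1 maltose-dextrin gavage. Hearts were taken 9 h after the gavage in both groups, so the measurements describe a short exposure and its binge together. The labels do not say that each library came from a separate mouse, so a p-value here speaks of the spread among these samples alone, and that spread may be technical.

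In the Hippo pathway, the MST kinases Stk3 and Stk4 activate the kinases Lats1 and Lats2, which phosphorylate YAP and TAZ and hold them out of the nucleus. Unphosphorylated YAP and TAZ enter the nucleus and bind TEAD factors, which cannot activate most target genes without them. In the heart the pathway is known for its control of cardiomyocyte proliferation, of fibroblast activation and of responses to mechanical load, and YAP is mainly controlled by phosphorylation and localisation, neither of which RNA levels measure.

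The libraries held 28838386 to 37762233 expected counts, the estimated read counts that the RSEM program assigns to each gene. The ratio of counts to length-scaled values gives the effective length of each gene. Clustering the libraries by it, with the number of sets fixed at 2 beforehand, gave sets that cut across the groups. The sets were not cleanly separated. The largest root mean square log2 difference in length was 0.132 within a set, and the smallest between sets was 0.128. CONT replicates 1 and 2 and ET replicate 1 formed set 1, and CONT replicate 3 and ET replicates 2 and 3 formed set 2. ET replicate 1 also stood apart in composition: all 10 fibroblast, all 10 mesothelial and all 10 macrophage markers were highest in it. Summed atrial markers reached 14760 TPM (a level scaled for gene length, with the same total in every library) in ET replicate 1 and 2206 TPM in CONT replicate 3, against 114 to 519 TPM in the other 4 libraries. The ventricular light chain Myl2 was found at 6149 TPM in ET replicate 1 and at 9921 to 12932 TPM in the other 5. The sum of 12 cardiomyocyte markers was not low in ET replicate 1 alone. It was 46979, 59555 and 49514 TPM in ET replicates 1 to 3, all below the CONT range of 61146.5 to 64301.2 TPM. ET replicate 3 held the highest sums of neutrophil markers (94.9 TPM) and hepatocyte markers (74.0 TPM). Fewer cells of a type and less RNA per cell cannot be told apart in these bulk samples.

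On the length-scaled TPM level, Ankrd1 was the most abundant of the 10 genes, with a median of 291 TPM over the 6 libraries and a range of 38.6 to 419 TPM. Ccn2 followed at a median of 37.1 TPM (range 16.1 to 175), then Ccn1 at 18.9, Amotl2 at 16.4, Yap1 at 15.2 and Wwtr1 at 13.0 TPM. Tead1 had a median of 8.81 TPM, Lats2 and Crim1 of 6.24 TPM each, and Ajuba of 2.12 TPM. Neighbours in this order were clearly separated in only 2 places: Wwtr1 lay above Tead1 and Crim1 above Ajuba in all 6 libraries with no overlap of their ranges. The ranges of all other neighbours overlapped. Ankrd1 lay above Ccn2 in 5 of 6 libraries, the exception being ET replicate 2, where Ankrd1 was at 38.6 TPM and Ccn2 at 40.2 TPM.

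The ethanol and control libraries are shown for every gene in the plot of values by library. The values there are CPM, counts scaled to a common library total after correction by TMM, a normalisation that offsets differences in RNA composition. CPM compares 1 gene between libraries and not different genes with each other.

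**Figure D1:**
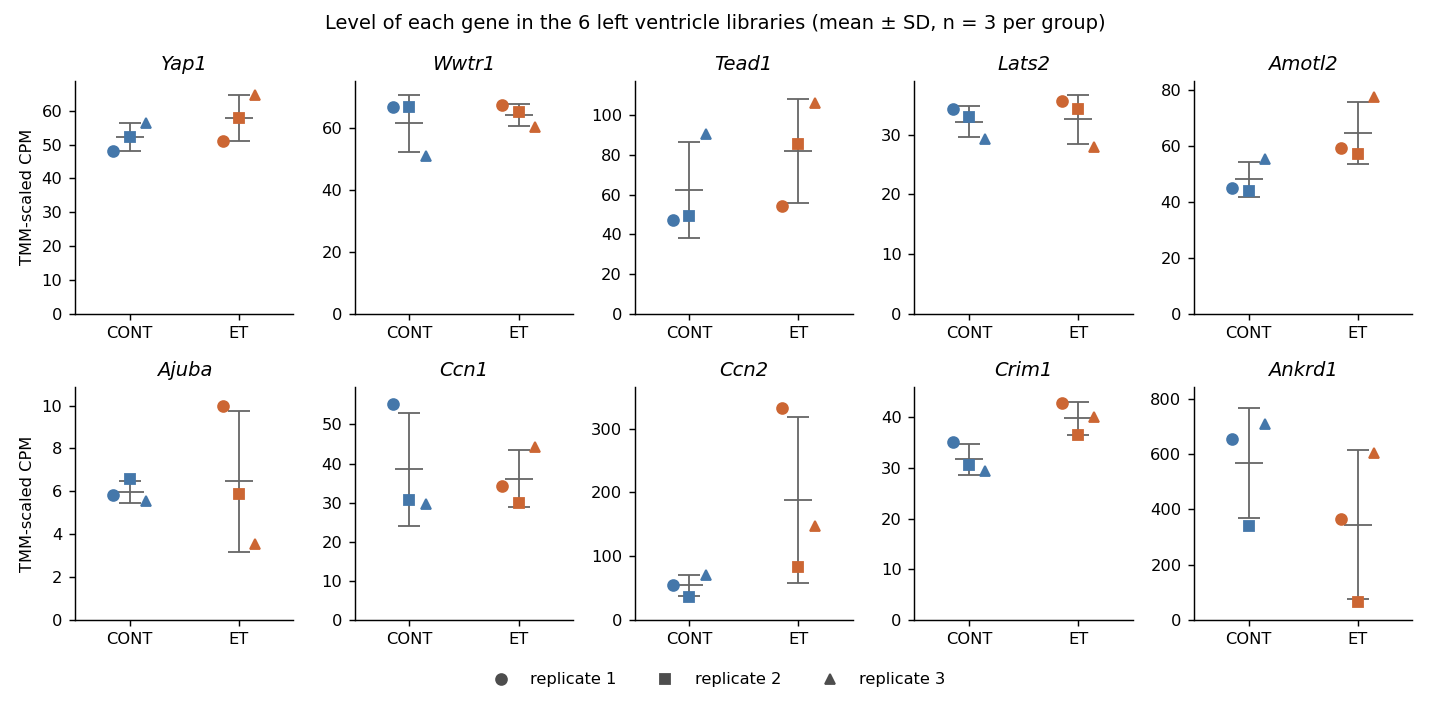
Level of each of the 10 genes in CPM (TMM-scaled, linear axis from 0) in the 3 CONT and 3 ET libraries, with 1 point per library (circle, square and triangle for replicates 1, 2 and 3; blue CONT, orange ET) and grey bars for the mean ± SD (n = 3). The 3 ET libraries of Amotl2, Ccn2 and Crim1 lie above all 3 CONT libraries, and Ankrd1 spans 64.0 CPM to 708 CPM.

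The hexamer GGAATG, the core of the element that TEAD factors bind, was searched on both strands (reverse complement CATTCC) in RefSeq promoter windows of 250 bases before to 50 bases after a gene's start (build GRCm38.p6). The table held windows for 8 of the 10 genes, and Ccn2 and Tead1 were not in it. All 8 held the hexamer, in 9 of their 10 windows. Over the whole table, 14.7% of 32851 windows and 16.6% of 27025 genes held it. The genes had been picked for the pathway and its targets, and a match describes letters in a window and not bound TEAD. Ajuba and Ankrd1 each held 2 matches in a window, as did 1.57% of the table's genes. The 30 bases around a match are printed here with the hexamer in capitals and each gene's own strand read 5′ to 3′, to show that matches occur in both orientations and with unlike flanks.

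The matches in the coactivator genes lay 141 bases (Yap1) and 136 bases (Wwtr1) before the start, the latter also 170 bases before a second annotated start of Wwtr1.
Yap1, chr9:8004720-8004749, minus strand: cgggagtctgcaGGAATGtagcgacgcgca
Wwtr1, chr3:57576029-57576058, minus strand: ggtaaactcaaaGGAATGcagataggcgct

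Those of the pathway regulators Lats2, Amotl2 and Ajuba lay 5 bases after and 65, 186 and 164 bases before the start, in that order. For Lats2 this was 1 of 2 annotated starts, one inside the gene, and the window of the other held no match. The Amotl2 start and match also lay inside the annotated gene (chr9:102716672-102733418).
Lats2, chr14:57746102-57746131, minus strand: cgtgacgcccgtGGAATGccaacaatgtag
Amotl2, chr9:102717727-102717756, plus strand: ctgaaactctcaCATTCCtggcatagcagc
Ajuba first match, chr14:54577830-54577859, minus strand: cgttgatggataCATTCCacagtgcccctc
Ajuba second match, chr14:54577808-54577837, minus strand: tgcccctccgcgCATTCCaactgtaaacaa

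Crim1 held its match 79 bases before the start.
Crim1, chr17:78200157-78200186, plus strand: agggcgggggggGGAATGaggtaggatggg

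Ccn1 and Ankrd1, the targets with 1 and with 2 matches, are printed over the 250 bases before their RefSeq start. For Ankrd1 that start lies inside the annotated gene (chr19:36111961-36120099), and so do all the bases printed. In Ccn1 the match lay 103 bases before the start, and in Ankrd1 the matches lay 210 and 123 bases before it.
Ccn1, chr3:145649986-145650235, minus strand: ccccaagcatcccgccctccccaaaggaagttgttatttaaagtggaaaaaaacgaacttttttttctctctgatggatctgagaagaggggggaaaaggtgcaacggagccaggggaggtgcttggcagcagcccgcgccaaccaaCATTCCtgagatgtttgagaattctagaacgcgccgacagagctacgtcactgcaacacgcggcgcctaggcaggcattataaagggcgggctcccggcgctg
Ankrd1, chr19:36119845-36120094, minus strand: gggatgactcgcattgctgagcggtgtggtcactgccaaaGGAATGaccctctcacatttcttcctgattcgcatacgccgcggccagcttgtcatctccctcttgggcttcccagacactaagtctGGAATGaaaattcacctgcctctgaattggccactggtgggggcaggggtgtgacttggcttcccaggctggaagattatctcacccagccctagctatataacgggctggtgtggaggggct

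Across all genes tested, the comparison of ET with CONT called no gene at an adjusted p under 0.05 (edgeR, quasi-likelihood F test, p-values adjusted by Benjamini-Hochberg). For the 10 genes this left 0 of 10 called, against a background of 0% of all genes tested. At an unadjusted p under 0.05, 3 of the 10 passed, all higher in ET, against 8.65% of all genes tested in either direction, 4.19% higher and 4.46% lower. The same 3, Amotl2, Ccn2 and Crim1, had ET values that did not overlap the CONT values, against 15.2% of all genes in either direction, 6.89% with ET higher and 8.36% with ET lower. Without ET replicate 1, 4 of the 10 had ET values above all CONT values, Yap1 being the addition, against 17.9% of all genes, and 0 lay below, against 18.8%. Without both CONT replicate 3 and ET replicate 1, the remaining CONT libraries are all of set 1 and the remaining ET libraries all of set 2, so group and set cannot be told apart. In that comparison 5 lay above (Tead1 in addition), against 28.7% of all genes, and 1 below (Wwtr1), against 31.7%; Yap1, Tead1 and Wwtr1 are the genes that also separated by set over all 6 libraries. With those 2 libraries left out, edgeR called 1 of the 10, Tead1, at a log2 fold change of 1.01 (adjusted p = 0.0245), against 5.27% of all genes, 3.37% higher in ET, while a term for the library set over all 6 libraries gave 0 calls. With all 6 libraries the log2 fold change was positive for 8 of 10 genes, against 51.9% of all genes, though Lats2 turned negative with upper-quartile factors, Ajuba turned negative on log2(TPM + 0.1) and Ccn1 positive on both TPM scales. The median log2 fold change of the 10 was 0.13, against 0.014 over all genes. DESeq2 called 1 of the 10, Ccn2, higher in ET, where it called 1.18% of all genes, 0.668% of them in that direction. The third tool, limma-voom, called 0 of 10 and 0% of all genes at an adjusted p under 0.05. At an unadjusted p under 0.05 limma-voom passed the same 3 genes and 8.12% of all genes.

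**Figure D2:**
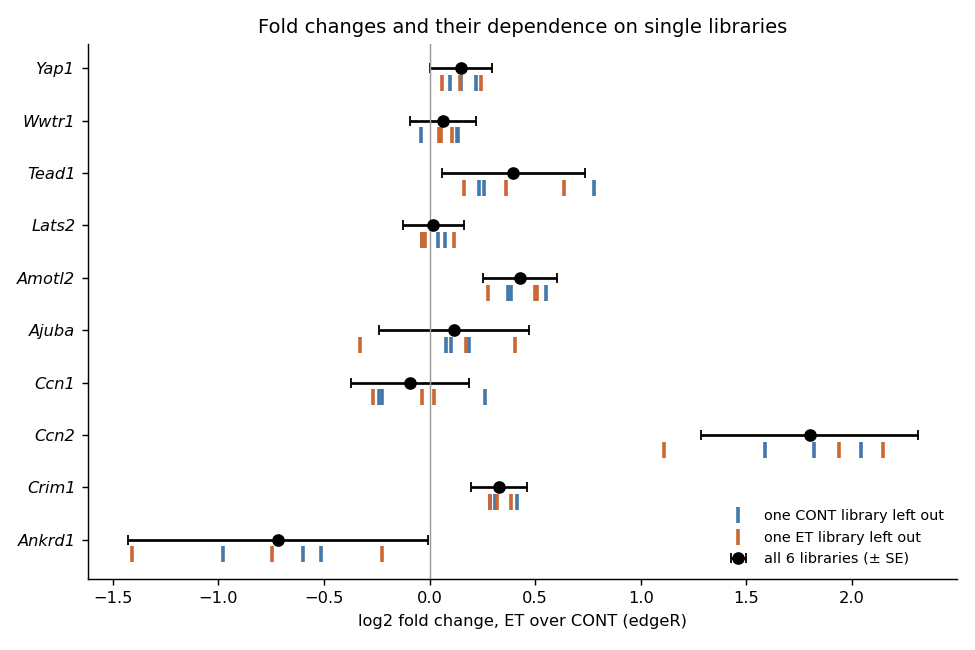
Log2 fold change of ET over CONT for each gene (black point, bar for the SE; edgeR), with coloured ticks for the value when 1 CONT (blue) or 1 ET (orange) library is left out. Ccn2 has the largest estimate, 1.80, and is at 1.11 without ET replicate 1; Ankrd1 has the lowest, -0.72, and its ticks run from -1.41 to -0.23.

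Yap1 (ENSMUSG00000053110, chr9:7931999-8004596, minus strand) encodes YAP. Its level was 48.1, 52.1 and 56.5 CPM in CONT replicates 1 to 3 and at 51.0, 57.8 and 64.7 CPM in ET replicates 1 to 3. The groups overlapped, and the means were 52.2 ± 4.19 CPM in CONT and 57.8 ± 6.82 CPM in ET (SD, n = 3 each). This gave a log2 fold change of 0.15 ± 0.15 (SE, adjusted p = 0.749 by edgeR). All 3 set 2 libraries lay above all 3 set 1 libraries, and the log2 ratio of ET over CONT inside each set was 0.027 (set 1) and 0.12 (set 2). Set 1 has ET replicate 1 as its only ET library, and set 2 has CONT replicate 3 as its only CONT library. Each within-set ratio, here and for the other genes, therefore rests on a single library on one side.

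Wwtr1 (ENSMUSG00000027803, chr3:57455649-57575910, minus strand) encodes TAZ, the paralog of YAP. CPM values were 66.9, 67.0 and 51.1 CPM in CONT and 67.6, 65.2 and 60.6 CPM in ET. The groups overlapped, and the lowest value was that of CONT replicate 3. Means were 61.6 ± 9.14 CPM in CONT and 64.5 ± 3.59 CPM in ET (SD, n = 3 each). ET over CONT was a log2 fold change of 0.065 ± 0.16 (SE, adjusted p = 0.905). Here the set 2 libraries lay below all set 1 libraries, with log2 ratios of 0.015 in set 1 and 0.30 in set 2. Summed endothelial markers were also lowest in CONT replicate 3 (884 TPM) and ET replicate 3 (684 TPM), against 1136 to 1421 TPM in the other 4 libraries, and their part in the Wwtr1 values was not tested. The ratio of Yap1 to Wwtr1 in TPM was 0.849, 0.907 and 1.29 in CONT and 0.886, 1.03 and 1.29 in ET. It was highest in CONT replicate 3 and ET replicate 3, so the groups overlapped.

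Tead1 (ENSMUSG00000055320, chr7:112679318-112906807, plus strand) encodes a TEAD factor, through which YAP and TAZ reach DNA. Levels were 47.2, 49.2 and 90.4 CPM in CONT and 54.2, 85.6 and 106 CPM in ET. Its values split by library set: the set 2 libraries lay at 85.6 to 106 CPM and the set 1 libraries at 47.2 to 54.2 CPM. The means were 62.3 ± 24.4 CPM in CONT and 82.0 ± 26.1 CPM in ET (SD, n = 3 each), and the log2 fold change was 0.40 ± 0.34 (SE, adjusted p = 0.707). Within the sets the log2 ratios were 0.17 and 0.084. Yap1, Wwtr1 and Tead1 were the 3 of 10 genes whose sets did not overlap, as was so for 29.4% of all genes. In a fit with a term for the library set, the log2 fold change of Tead1 was 0.13 (adjusted p = 0.745). It was 0.78 without CONT replicate 3, 0.63 without ET replicate 1 and 0.16 without ET replicate 3.

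The TEAD family had unlike levels. Tead1 held 24.8%, 27.5% and 46.2% of the summed TPM of Tead1 to Tead4 in CONT, and 28.6%, 44.3% and 54.8% in ET. Tead2, Tead3 and Tead4 are its paralogs. Tead3 was measured at 7.23 to 8.10 TPM in CONT and 6.16 to 10.2 TPM in ET, and its log2 fold change was -0.22 ± 0.15 (SE, adjusted p = 0.649). The share of Tead1 was thus highest in ET replicate 3 and in the set 2 libraries, and the groups overlapped.

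**Figure D3:**
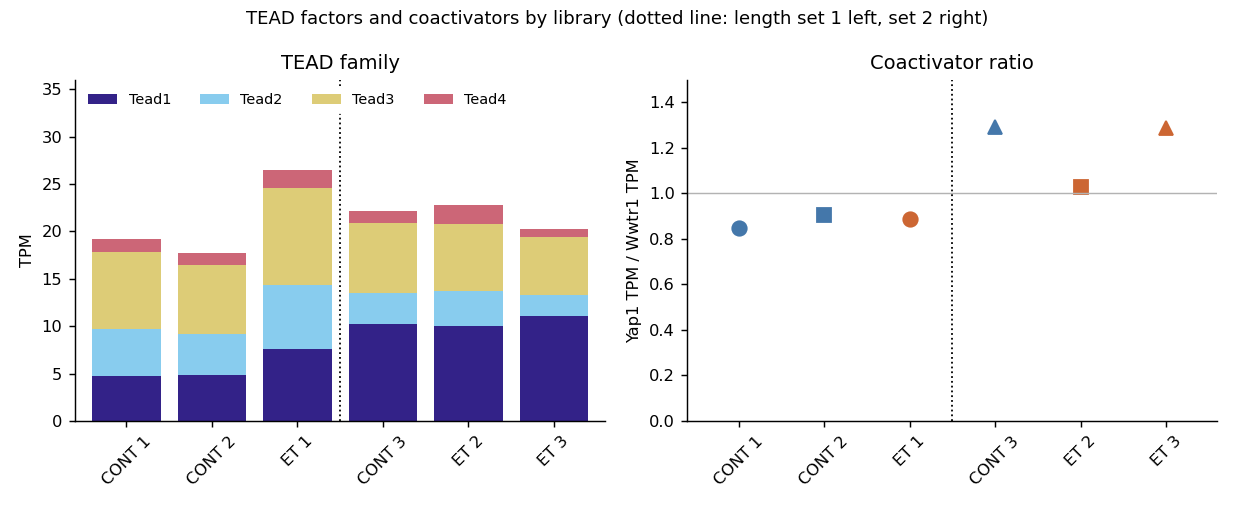
Left, stacked TPM of Tead1 to Tead4 in each library; right, the ratio of Yap1 to Wwtr1 TPM, with set 1 libraries left of the dotted line and set 2 right of it. Tead1 is at 4.75 to 7.55 TPM in set 1 and 10.1 to 11.1 TPM in set 2, and the ratio is below 1 in set 1 and above 1 in set 2.

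Lats2 (ENSMUSG00000021959, chr14:57689662-57758388, minus strand) encodes a kinase that inhibits YAP and TAZ and is itself a known target of them. Libraries gave 34.3, 33.0 and 29.3 CPM in CONT and 35.6, 34.3 and 27.96 CPM in ET. The ranges overlapped and the highest library was 1.27 times the lowest. For ET over CONT the log2 fold change was 0.018 ± 0.14 (SE, adjusted p = 0.975), with within-set log2 ratios of 0.081 and 0.089. Of its exon bases, 42.4% are shared with Gm49361, a gene on the same strand that was listed at 0 in every library.

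Amotl2 (ENSMUSG00000032531, chr9:102716672-102733418, plus strand) encodes an angiomotin that binds YAP and holds it outside the nucleus, and is a known YAP target as well. It was measured at 45.1, 44.1 and 55.3 CPM in CONT and 59.4, 57.4 and 77.6 CPM in ET. Each ET library lay above each CONT library, and the means were 48.2 ± 6.23 CPM and 64.8 ± 11.1 CPM (SD, n = 3 each). The log2 fold change was 0.43 ± 0.18 (SE), a 1.35-fold higher level, with an unadjusted p of 0.0449 and an adjusted p of 0.571 by edgeR. Within sets the log2 ratio was 0.42 and 0.29, and the log2 fold change was 0.27 without ET replicate 3 and 0.50 without ET replicate 1. Its paralog Amotl1 was measured at 5.92, 5.97 and 6.15 TPM in CONT and 10.2, 10.9 and 6.93 TPM in ET, also without overlap.

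Ajuba (ENSMUSG00000022178, chr14:54567472-54577558, minus strand) encodes a LIM protein that binds and inhibits LATS kinases. It was the least abundant of the 10 genes. Its values were 5.83, 6.55 and 5.56 CPM in CONT and 10.0, 5.88 and 3.52 CPM in ET, so the ET libraries lay both above and below CONT. Its log2 fold change was 0.12 ± 0.36 (SE, adjusted p = 0.930). The within-set log2 ratios were 0.69 and -0.24. The effective length of Ajuba ranged from 2576 to 3331 bases across libraries, so its TPM and CPM need not move in step.

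Ccn1 (ENSMUSG00000028195, chr3:145646976-145649981, minus strand) encodes a secreted matricellular protein, and is a frequent readout of YAP activity in cultured cells. It was measured at 55.1, 30.8 and 29.6 CPM in CONT and 34.1, 29.9 and 44.2 CPM in ET. CONT replicate 1 was highest and the groups overlapped. Means were 38.5 ± 14.4 CPM in CONT and 36.1 ± 7.35 CPM in ET (SD, n = 3 each). The log2 fold change was -0.094 ± 0.28 (SE, adjusted p = 0.926), with opposite within-set log2 ratios of -0.33 and 0.33.

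Ccn2 (ENSMUSG00000019997, chr10:24595442-24598683, plus strand), also a secreted matricellular protein and a known YAP target linked to fibrosis, was the gene of the 10 with the largest difference. It was measured at 55.3, 36.6 and 70.1 CPM in CONT and at 333, 83.4 and 148 CPM in ET. Every ET library lay above every CONT library, and ET replicate 1 lay far above the other 2 ET libraries. The means were 54.0 ± 16.8 CPM in CONT and 188 ± 130 CPM in ET (SD, n = 3 each). Fitted by edgeR, the log2 fold change was 1.80 ± 0.51 (SE), 3.48-fold, with an unadjusted p of 0.00974 and an adjusted p of 0.5004. DESeq2 gave an adjusted p of 0.0230. Within sets the log2 ratio was 2.86 in set 1 and 0.72 in set 2. Without ET replicate 1 the log2 fold change was 1.11 (adjusted p = 0.268), and with a term for the library set it was 1.79 (adjusted p = 0.435).

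The library highest in Ccn2 was also the library highest in the markers of several non-cardiomyocyte types. Summed TPM was 2273 for fibroblast, 119 for mesothelial and 402 for macrophage markers in ET replicate 1. In the CONT libraries the same sums ranged from 665 to 821, from 4.53 to 16.5 and from 122 to 152. Ccn2 is known to be expressed by fibroblasts among other cells, and the part of these markers in the difference was not tested. In ET replicate 2, with Ccn2 at 83.4 CPM, the fibroblast sum was 948 TPM, above the CONT range. In ET replicate 3, with Ccn2 at 148 CPM, the fibroblast sum was 707 TPM and the atrial sum 121 TPM, both within the CONT ranges. Gsn (412 TPM) and Dcn (228 TPM) made up most of that fibroblast sum, and single markers went both ways. Pdgfra was at 6.22 TPM, above its 3.34 to 4.09 TPM in CONT, and Tcf21 and Dcn were also above. Col3a1 was at 4.93 TPM, below its 20.2 to 28.8 TPM in CONT, and Col1a1, Col1a2, Lum, Dpt and Postn were also below. The mesothelial, macrophage and smooth muscle and pericyte sums of ET replicate 3 were within the CONT ranges. Its cardiomyocyte (49514 TPM), endothelial (684 TPM) and skeletal muscle (1052 TPM) sums lay below the CONT ranges, and its neutrophil (94.9 TPM) and hepatocyte (74.0 TPM) sums above. Not all of this was particular to ET replicate 3. The skeletal muscle sum was 992 and 1172 TPM in ET replicates 1 and 2, also below the CONT range of 1558 to 1714 TPM. The neutrophil (18.6 TPM) and hepatocyte (33.7 TPM) sums of ET replicate 1 were also above the CONT ranges. In ET replicates 1 and 2 the smooth muscle and pericyte sum was 584 and 342 TPM, above the CONT range of 192 to 264 TPM. The part of these sums was not tested either. Ccn2 overlaps Gm15270 on the opposite strand over 23.2% of its exon bases, and Gm15270 held 46.4 to 97.2 counts per library against 977 to 12486 for Ccn2. The ratio of Ccn2 to Ccn1 in TPM was 0.901, 1.16 and 2.15 in CONT and 8.23, 2.43 and 2.90 in ET. These ratios did not overlap between groups, while Ccn1 on its own did.

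**Figure D4:**
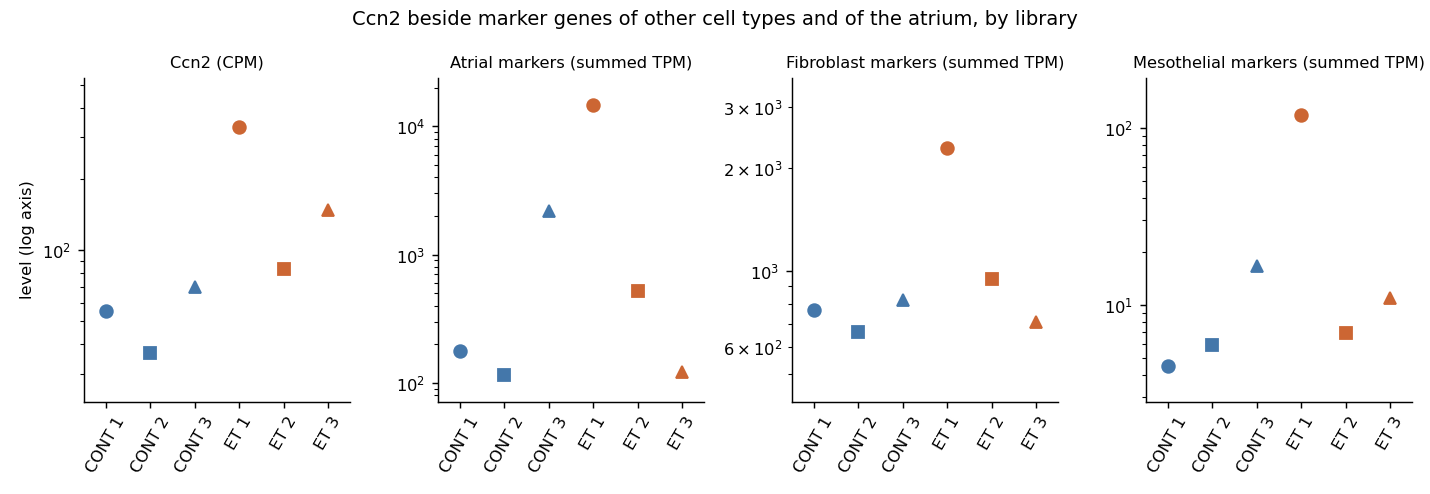
Ccn2 in CPM and the summed TPM of atrial, fibroblast and mesothelial markers in each of the 6 libraries (log axes; blue CONT, orange ET). ET replicate 1 is highest in Ccn2 (333 CPM) and in the fibroblast sum (2273 TPM). ET replicate 3 has Ccn2 at 148 CPM and a fibroblast sum of 707 TPM.

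Crim1 (ENSMUSG00000024074, chr17:78200248-78376592, plus strand), a transmembrane protein with cysteine-rich repeats and a known YAP target, was measured at 35.2, 30.6 and 29.3 CPM in CONT and 42.9, 36.5 and 40.1 CPM in ET. No ET value fell into the CONT range. The means were 31.7 ± 3.08 CPM and 39.8 ± 3.22 CPM (SD, n = 3 each). The log2 fold change was 0.33 ± 0.13 (SE), 1.26-fold, with an unadjusted p of 0.0432 and an adjusted p of 0.568. The log2 ratios within sets, each with a single library on one side, were 0.38 and 0.39. The log2 fold change was 0.29 without ET replicate 1. The gene overlaps the opposite-strand Fez2 over 2.05% of its exon bases, and its effective length varied across libraries from 4771 to 5922 bases.

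Ankrd1 (ENSMUSG00000024803, chr19:36111961-36120099, minus strand) encodes a muscle ankyrin repeat protein of the sarcomere and nucleus that rises with load and injury in many heart models. The level was 655, 339 and 708 CPM in CONT and 366, 64.0 and 605 CPM in ET. The ET libraries ranged from the lowest value of all to well within the CONT range, so the groups overlapped. The means were 568 ± 199.6 CPM in CONT and 345 ± 271 CPM in ET (SD, n = 3 each). The log2 fold change was -0.72 ± 0.71 (SE, adjusted p = 0.749), with within-set log2 ratios of -0.44 and -1.08. ET replicate 2 decided much of its size: without it the log2 fold change was -0.23, and without ET replicate 3 it was -1.41. Ankrd1 and Ccn2 were the 2 of 10 genes whose highest library exceeded the lowest over 4-fold, 11.1 times and 9.10 times, as did 12.2% of all genes. Ankrd23, a paralog, was measured at 87.5, 58.3 and 139 TPM in CONT and 66.4, 50.5 and 83.6 TPM in ET, with a log2 fold change of -0.70 ± 0.31 (SE, adjusted p = 0.574).

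The 10 genes did not follow one shared pattern over the 6 libraries. Patterns were compared as the root mean square difference of centred log2 CPM, a distance that is 0 for equal patterns. Lats2 and Wwtr1 were the most alike pair at 0.0950, and Ankrd1 and Ccn2 the least alike at 1.57. Outside the 10, the genes closest to Yap1 were Dnajc13 (0.021) and Vps13a (0.028), and those closest to Wwtr1 were Sept11 (0.024) and Ctnnd1 (0.044). The closest to Tead1 was Ryr2, the ryanodine receptor of the sarcoplasmic reticulum, at 0.043, followed by Ank3 at 0.082. For the pathway regulators, Lats2 lay closest to Pcgf3 (0.030) and Mbtd1 (0.036), Amotl2 to Uso1 (0.047) and Spg20 (0.050), and Ajuba to Ubtd2 (0.082) and Itm2a (0.095). Ccn1 lay closest to Btg2 (0.099) and Armc7 (0.11), and Crim1 to Ttc23 (0.047) and Cmip (0.058). Nearest to Ccn2 were Srpx (0.26) and Rab15 (0.28), and nearest to Ankrd1 were Cntn2 (0.30) and Nr4a1 (0.47). The distance was not scaled by a gene's own range, which in log2 CPM was 3.18 for Ccn2, 3.47 for Ankrd1 and 0.35 for Lats2. All distances are over the same 6 libraries, so each carries the differences in depth and composition among them.

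**Figure D5:**
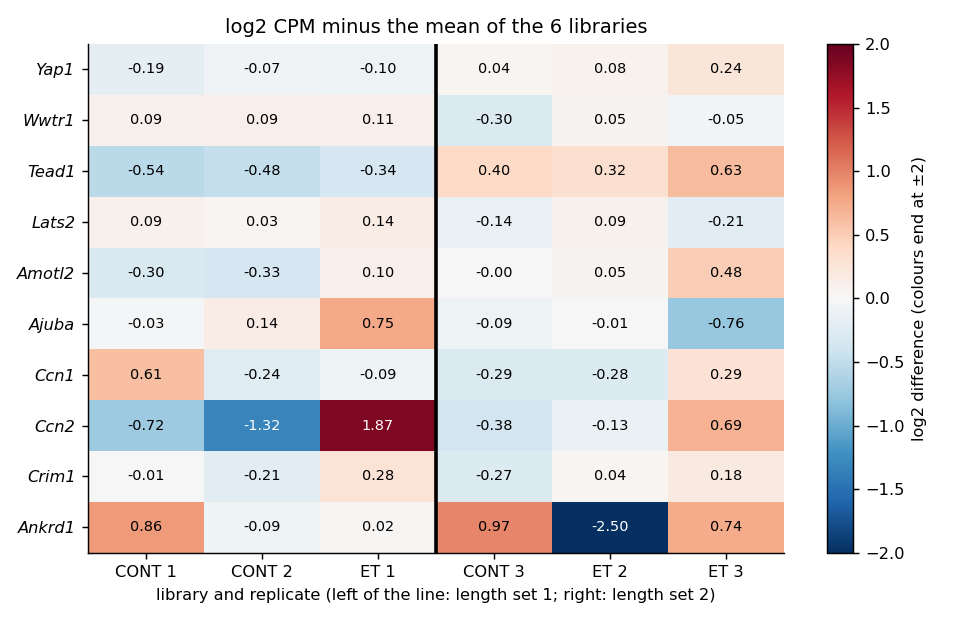
Log2 CPM of the 10 genes (rows) in the 6 libraries (columns; set 1 left of the line, set 2 right) minus each gene's mean, with colours ending at ±2. Ccn2 is highest in ET replicate 1, Ankrd1 is lowest in ET replicate 2, and Tead1 is lower in the set 1 libraries than in the set 2 libraries.

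Of 8 further lists of pathway genes, none had a gene called over all genes tested. Among the 6 core Hippo kinases and scaffolds, 4 had a positive log2 fold change, against 51.9% of all genes. Their median was 0.083, against 0.014 over all genes, and it was -0.021 without ET replicate 1. Stk4, the MST1 kinase, was measured at 9.85, 9.40 and 9.47 CPM in CONT and 12.8, 11.96 and 11.9 CPM in ET, without overlap. It was the 1 of the 6 with all ET values above CONT, against 6.89% of all genes. Its log2 fold change was 0.35 ± 0.12 (SE, adjusted p = 0.515). Among 28 upstream regulators, 19 were positive, against 51.9% of all genes, with a median of 0.15. At an unadjusted p under 0.05, 4 passed with ET higher, against 4.19% of all genes, and 1 with ET lower, against 4.46%. The median was 0.081 with a term for the library set. Amotl1, named above, had a log2 fold change of 0.42 ± 0.16 (SE, adjusted p = 0.535).

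Of 7 TEAD factors and Vestigial-like cofactors, 5 were tested, and the median was -0.067. In the edgeR fit of all 6 libraries 1 of these had a positive log2 fold change, against 51.9% of all genes. That 1 was Vgll3, at 2.13, 2.02 and 2.28 CPM in CONT and 7.23, 3.35 and 2.21 CPM in ET. Its log2 fold change was 0.99 ± 0.43 (SE, adjusted p = 0.572), and 0.39 without ET replicate 1. The sign of the list's median did not hold. On log2(TPM + 1), on log2(TPM + 0.1) and with library totals the median was 0.091, 0.11 and 0.049. The medians of all genes there were 0.15, 0.18 and 0.12. Without ET replicate 3 the list's median was 0.12. Tead3 was also positive on both TPM scales, at 0.015 and 0.013. Of 16 further genes of a published YAP and TAZ target signature, 15 were tested. Of those, 12 were positive, against 51.9% of all genes, with a median of 0.50 against 0.014 over all genes. Without ET replicate 1 that median was 0.27. It was 0.38 with a filter of CPM of at least 1 in 3 libraries, which left Fjx1 out. For 4 of the 15 the unadjusted p was under 0.05, all higher in ET, against 4.19% of all genes. For 5 the ET values lay above all CONT values, against 6.89%, and for 0 below, against 8.36%. Fjx1 was measured at 0.739, 0.562 and 0.621 CPM in CONT and 1.92, 1.53 and 0.976 CPM in ET, with a log2 fold change of 1.197 ± 0.36 (SE, adjusted p = 0.515). These levels are low and rest on 27, 15 and 21 counts in CONT and 72, 52 and 30 counts in ET. Axl, a receptor tyrosine kinase, was measured at 63.7, 68.0 and 59.4 CPM in CONT and 175, 93.6 and 84.9 CPM in ET, with 0.89 ± 0.29 (SE, adjusted p = 0.515). Both were highest in ET replicate 1, and without it the log2 fold changes were 0.98 for Fjx1 and 0.50 for Axl.

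Some lists of related genes turned on ET replicate 1. Of 4 other CCN proteins 3 were tested. Ccn3 had a log2 fold change of 2.47 ± 1.16 (SE, adjusted p = 0.578) and Ccn4 of 0.64 ± 0.81 (SE, adjusted p = 0.802), and without ET replicate 1 both were -0.22. Of 14 SRF and MRTF factors and targets, 0 had an unadjusted p under 0.05 by edgeR, against 8.65% of all genes. The log2 fold change was positive for 11, against 51.9% of all genes, with a median of 0.17 against 0.014. Without ET replicate 1 that median was -0.22. Cnn1 and Tagln, smooth muscle genes, had log2 fold changes of 1.95 ± 1.08 (SE, adjusted p = 0.606) and 1.504 ± 0.84 (SE, adjusted p = 0.610), and -0.25 and -0.20 without that library. Among 6 LIM proteins related to Ajuba, Limd1, a LATS inhibitor, had 0.86 ± 0.35 (SE, adjusted p = 0.567) and 0.49 (adjusted p = 0.462) with a term for the library set. It was called (1.40, adjusted p = 0.0166) without CONT replicate 3 and ET replicate 1, where group and set cannot be told apart. Fblim1 had -0.38 ± 0.17 (SE, adjusted p = 0.577), and the median of the 6 went from 0.069 to -0.30 without ET replicate 1.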

How the data were processed

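Left ventricular RNA of 6 libraries, 3 CONT and 3 ET, was analysed from deposited gene tables. The expected counts were estimated by the authors with RSEM 1.2.31 after STAR 2.7.0f on mm10, per the submitters' processing notes, and were not normalised. TPM and FPKM values were deposited beside them, per the file headers. Strandedness and annotation release: not given in the sources used here. Expected counts were rounded, filtered by filterByExpr (minimum count 10, minimum total count 15) and TMM-scaled. ET was compared with CONT by edgeR 4.0.16 (robust quasi-likelihood test, two-sided, Benjamini-Hochberg over 15727 genes, threshold 0.05; R 4.3.3). DESeq2 1.42.0 and limma 3.58.1 were alternatives, with other scalings, filters, pseudocounts, a term for the library set and left-out libraries. The fits were tested on simulated data. Effective gene lengths came from counts and FPKM, and clustering them into a fixed number of 2 groups gave the library sets. Coordinates come from GENCODE vM21 (GRCm38). All 10 genes were named with every library's value. Of other pathway lists, at most the 2 of lowest p were named where none passed, and for each of the 10, the 2 genes of the nearest pattern. Some cell type markers were named beside their sums. Of the genes so chosen, 1 is not reported here. The 10 genes and the lists were chosen with earlier results of these data known. The libraries held 28838386 to 37762233 counts and the 10 genes 108 to 23944 counts per library; counting error is therefore largest for Ajuba, the gene with the fewest.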

Additional observations from a re-analysis of the deposited data

How the results depend on the processing

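No paired analysis was possible because the replicate numbers follow the order of deposit only. The number of genes called was 0 by edgeR, 185 by DESeq2, 2 by limma on log2(TPM + 0.1) and 828 without CONT replicate 3 and ET replicate 1. Of the 10 genes, 1 was called by DESeq2 (Ccn2) and 1 without those libraries (Tead1, log2 fold change 1.01, adjusted p = 0.0245), where group and library set cannot be told apart. A term for the library set called 0 genes and gave Tead1 0.13. The median of the 10 was 0.26 with library totals, 0.28 on log2(TPM + 1) and 0.30 on log2(TPM + 0.1), where the median of all genes was 0.12, 0.15 and 0.18. Leaving out 1 library gave medians of 0.14 to 0.18. The sign held in 19 alternatives for Yap1, Tead1, Amotl2, Ccn2 (1.11 to 2.15), Crim1 (0.24 to 0.62) and Ankrd1 (-1.41 to -0.23). It changed for Lats2 with upper-quartile factors (-0.024), for Ccn1 on log2(TPM + 1) (0.13) and log2(TPM + 0.1) (0.14), for Tead3 on both (0.015 and 0.013), and for Ajuba on log2(TPM + 0.1) (-0.011). Without CONT replicate 3 and ET replicate 1 it changed for Lats2 (-0.092), Wwtr1 (-0.068), Ajuba (-0.37), Ccn3 (-0.50), Cnn1 (-0.35) and Tagln (-0.37). Leaving out 1 library gave ranges of -0.042 to 0.13 for Wwtr1, -0.035 to 0.11 for Lats2, -0.33 to 0.41 for Ajuba, -0.27 to 0.26 for Ccn1, -0.22 to 2.97 for Ccn3, -0.22 to 1.82 for Ccn4, -0.25 to 2.68 for Cnn1 and -0.20 to 1.93 for Tagln. The cause was not tested. The counts of non-overlapping values without ET replicate 1, and without CONT replicate 3 and ET replicate 1, were added after seeing the data.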
